A study of Mus musculus with 10 samples.

Results

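The genes described here are 9 genes of lipid handling: the peroxisome proliferator-activated receptor (PPAR) genes Ppara, Ppard and Pparg, and the PPAR target genes Angptl4, Cpt1a, Cpt1b, Plin2, Pdk4 and Cd36. They were picked by symbol among 34745 genes of the deposited expression table, and each matched 1 row. The choice was made with earlier results of the same comparison known, so the levels of the 9 genes in both groups are a description and carry no test. The data are RNA sequencing counts from 10 libraries of the mouse hepatoma line Hepa1-6, labelled as wild type. In 5 libraries the cells had no treatment. The other 5 carry the label "CTL attack": the cells had been grown for 48 h in DMEM with 10% serum together with CD8+ T cells, the killer lymphocytes. The T cells came from spleens of male C57/BL6 mice aged 6 to 8 weeks and had been activated for 5 days with antibodies to CD3 and CD28. Loose cells were rinsed off with PBS before RNA was taken. The ratio of T cells to hepatoma cells and the handling of untreated wells over the 48 h are not stated in the labels. They also do not say whether libraries of a group came from separate cultures, and p-values therefore describe the spread among these libraries and may reflect technical replicates.

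PPARs are nuclear receptors that bind fatty acids and related lipids. Each pairs with a retinoid X receptor (RXR) on direct repeats of the half-site AGGTCA and switches on genes for lipid uptake, storage and oxidation. PPAR alpha is the main form in hepatocytes, PPAR delta is widely expressed, and PPAR gamma drives fat storage in adipocytes and also acts in macrophages. Of the targets, Angptl4 is a secreted inhibitor of lipoprotein lipase. Cpt1a and Cpt1b load fatty acids onto carnitine for entry into mitochondria, Plin2 coats lipid droplets, Pdk4 restrains pyruvate dehydrogenase, and Cd36 takes up fatty acids.

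Library totals ran from 12922263 to 17100662 counts, and the ranges of the groups overlapped. Of 15 hepatocyte and hepatoma markers, 5 were abundant enough to test. Levels are in CPM, counts relative to library totals after TMM scaling, with the SD over 5 libraries. The epithelial keratin gene Krt8 fell from 1116 ± 90.5 to 938 ± 63.1 CPM and the fetal liver gene Afp from 20.0 ± 2.06 to 15.5 ± 0.863 CPM, with edgeR adjusted p of 0.00790 and 0.00400. The keratin gene Krt18 was at 497 ± 33.7 and 482 ± 42.4 CPM and the liver factor gene Foxa2 at 29.7 ± 1.83 and 31.8 ± 2.21 CPM, and neither was called. The fifth, the transferrin gene Trf, was at 0.0250 ± 0.0559 and 3.69 ± 0.892 CPM, with 2 and 274 summed counts. It was abundant enough to test only through the co-culture libraries, so nothing is read from its call. The part of these marker changes in the levels of the 9 genes was not tested. Defining genes of adult hepatocytes were at or near 0 in both groups, with 0 and 4 summed counts for Alb and 0 and 1 for Hnf4a in untreated and co-cultured cells. Of 20 T cell markers, 18 were too low to test, and Cd3e, Cd3d, Cd8a, Cd2, Gzma, Prf1 and Ifng were at 0 in all 10 libraries. The summed level of the T cell list was 7.54 to 11.8 CPM in untreated libraries and 6.68 to 8.04 CPM after co-culture. Most of this sum was Lck, at 8.22 ± 1.34 and 5.23 ± 0.866 CPM, and without it, a choice made after seeing the data, the other 19 markers summed to 0.527 to 2.12 CPM and 1.66 to 2.53 CPM, ranges that overlapped. In bulk RNA, fewer cells of a type and less RNA per cell cannot be told apart.

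After co-culture 5 of the 6 target genes stood higher, by 1.42-fold for Plin2, 2.53-fold for Cpt1a, 6.34-fold for Cpt1b, 7.58-fold for Angptl4 and 26.1-fold for Cd36. Pdk4 gave 1 read in all. The receptor genes were closer to their untreated levels, at a fold of 1.01 for Ppard and 0.840 for Pparg, and Ppara had 26 and 24 summed counts. Over all genes, 33.5% of 12666 tested were called (edgeR quasi-likelihood test, adjusted p under 0.05), 17.4% higher and 16.1% lower. On library totals without TMM, which moves the median log2 fold change of all genes from 0.01 to 0.04, 60.3% of the calls were higher, against 51.9% with TMM. Of the 9 genes, 7 passed the filter on low counts, 5 were called higher, all of them targets, and 1 (Pparg) lower. The same 5 did not overlap between the groups, against 23.8% of all tested genes, 12.6% higher and 11.1% lower. Nothing is read from these counts, since this comparison was known when the genes were chosen, and Cpt1b and Cd36 passed the filter only through the co-culture libraries.

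**Figure D1:**
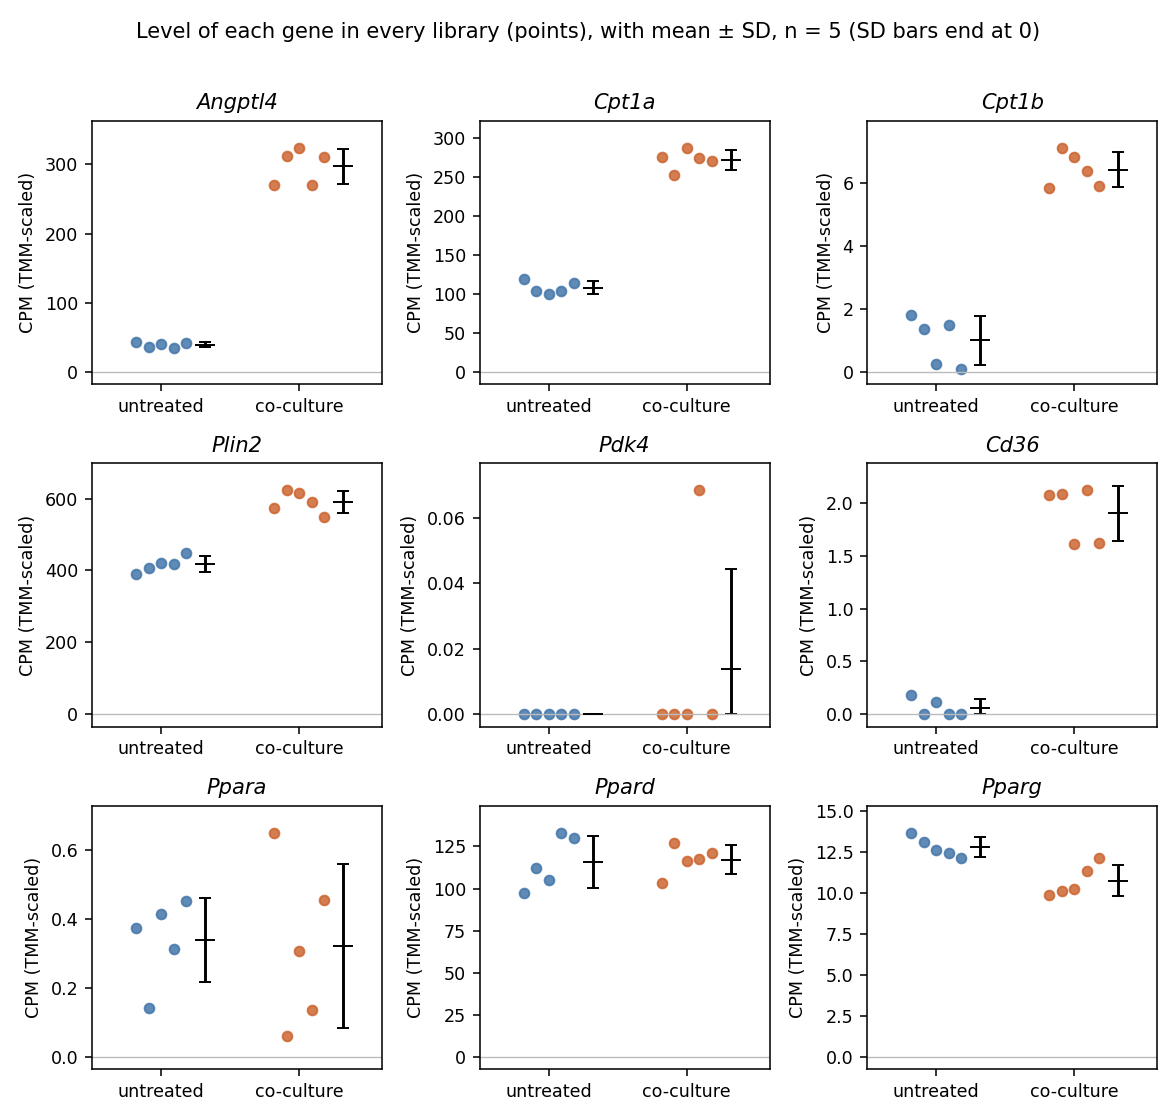
Level of the 9 genes in each library, as TMM-scaled CPM, with the mean and SD of each group (n = 5). The co-culture points of Angptl4, Cpt1a, Cpt1b, Plin2 and Cd36 lie above all untreated points, while those of Ppard, Pparg and Ppara overlap with them.

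Promoter windows from 250 bases before to 50 after the start site (RefSeq, GRCm38.p6) were matched for 7 of the 9 genes, in 9 windows, but not for Angptl4 and Cpt1b. The half-site AGGTCA, searched on both strands, occurred in 5 of the 9 windows, against 16.3% of 32851 windows of the same length. These were the windows of Cpt1a, Plin2 and Cd36 and 2 of Pparg. The direct repeat AGGTCANAGGTCA, which holds the half-site at both ends, was in none of the 9 and in 0.0396% of all windows. Its relaxed form AGGNCANAGGNCA, which includes every strict match, was in none of the 9 and in 0.381% of all windows. The windows of Cpt1a (chr19:3323051-3323350, plus strand), Plin2 (chr4:86670010-86670309, minus strand) and Cd36 (chr5:17835847-17836146, minus strand) are shown because these targets stood higher after co-culture and each window holds 1 half-site. They are written 5′ to 3′ on the gene's strand with the half-site in capitals, which reads TGACCT because it lies on the opposite strand.
Cpt1a: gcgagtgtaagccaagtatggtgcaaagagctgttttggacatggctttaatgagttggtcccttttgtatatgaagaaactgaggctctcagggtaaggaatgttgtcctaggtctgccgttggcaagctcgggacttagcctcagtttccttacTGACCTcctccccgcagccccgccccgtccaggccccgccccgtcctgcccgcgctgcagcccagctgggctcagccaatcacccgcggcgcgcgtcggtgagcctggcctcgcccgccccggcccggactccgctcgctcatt
Plin2: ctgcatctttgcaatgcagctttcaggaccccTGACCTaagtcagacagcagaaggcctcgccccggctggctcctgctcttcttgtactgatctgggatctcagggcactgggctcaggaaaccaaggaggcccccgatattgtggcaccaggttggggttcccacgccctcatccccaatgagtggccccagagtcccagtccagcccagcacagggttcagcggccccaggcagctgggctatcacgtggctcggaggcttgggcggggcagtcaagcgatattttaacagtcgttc
Cd36: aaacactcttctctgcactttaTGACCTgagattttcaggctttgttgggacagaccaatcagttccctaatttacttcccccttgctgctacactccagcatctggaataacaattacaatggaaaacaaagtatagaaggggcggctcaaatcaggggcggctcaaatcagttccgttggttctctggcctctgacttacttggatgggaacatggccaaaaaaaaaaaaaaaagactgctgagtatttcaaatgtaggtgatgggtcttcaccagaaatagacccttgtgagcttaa
A match of letters describes the window and is not a binding site. The Cd36 window lies inside the deposited interval of the gene, 17781690 to 17888801, and not at its 5′ end. Which start site these cells use was not tested.

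Angptl4 (ENSMUSG00000002289, chromosome 17, 33773750 to 33781575, minus strand, mm10) stood at 43.5, 35.7, 40.7, 34.1 and 42.2 CPM in untreated replicates 1 to 5 and at 269.8, 312, 324, 270.0 and 311 CPM in co-culture replicates 1 to 5. The groups were far apart, and the lowest co-culture library was several times the highest untreated one. The means were 39.2 ± 4.13 and 297 ± 25.6 CPM (SD, n = 5), a log2 fold change of 2.92 ± 0.0817 SE. The coefficient of variation was 10.5% in untreated cells and 8.61% after co-culture. Among 12100 tested genes with a mean of 1 CPM or more in untreated cells, Angptl4 ranked 2 from the top by fold change. This rank and those of Cpt1a and Plin2 below are descriptions, since the genes were chosen with this comparison known.

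Cpt1a, the liver isoform of carnitine palmitoyltransferase 1 (ENSMUSG00000024900, chromosome 19, 3323301 to 3385732, plus strand), stood at 119, 103, 99.2, 103 and 114 CPM in untreated replicates 1 to 5 and at 276, 253, 288, 274 and 271 CPM after co-culture. No co-culture library came near the untreated range. The means were 108 ± 8.29 and 272 ± 12.7 CPM (n = 5, log2 fold change 1.34 ± 0.0573 SE), and the gene ranked 12 among the same 12100 genes.

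Plin2, or perilipin 2 (ENSMUSG00000028494, chromosome 4, 86648386 to 86670060, minus strand), was the highest of the 9 genes in CPM. It stood at 390.1, 408, 422, 417 and 449 CPM in untreated cells and at 573, 623, 617, 591 and 550.0 CPM after co-culture. The groups did not overlap, and the step was smaller than those of Angptl4 and Cpt1a. The means were 417 ± 21.7 and 591 ± 30.4 CPM (n = 5, log2 fold change 0.50 ± 0.0497 SE), rank 572 of the 12100.

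Cpt1b, the muscle isoform (ENSMUSG00000078937, chromosome 15, 89416405 to 89425863, minus strand), had 29, 19, 4, 24 and 1 counts in untreated replicates 1 to 5 and 90, 116, 89, 93 and 91 counts after co-culture. The untreated libraries were scattered, with a coefficient of variation of 78.9% against 8.70% after co-culture. The means were 0.992 ± 0.783 and 6.41 ± 0.558 CPM (n = 5, log2 fold change 2.66 ± 0.383 SE). The deposited table places Cpt1b wholly within the interval of Chkb (choline kinase beta, 89416405 to 89429908) on the same strand, so reads could have been split between the genes and the value of Cpt1b is uncertain. Chkb itself was at 43.9 ± 6.12 and 43.6 ± 5.22 CPM with an edgeR adjusted p of 0.970. The untreated libraries with 4 and 1 counts of Cpt1b held 838 and 681 counts of Chkb, the highest of their group, and the part of this split in the level of Cpt1b was not tested.

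Cd36, the fatty acid scavenger receptor (ENSMUSG00000002944, chromosome 5, 17781690 to 17888801, minus strand), had 3, 0, 2, 0 and 0 counts in untreated replicates 1 to 5 and 32, 34, 21, 31 and 25 counts after co-culture. It was at the limit of detection without T cells, where 3 counts in 1 library correspond to 0.178 to 0.230 CPM, and low but present in every library with them. The means were 0.0611 ± 0.0871 and 1.90 ± 0.264 CPM (n = 5, log2 fold change 4.70 ± 0.450 SE). The summed counts of 5 and 143 give a ratio of 29.2 with an exact 95% binomial interval of 12.2 to 91.4. Without untreated replicate 1, which held 3 of the 5 untreated counts, the log2 fold change was 5.53.

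Cd36 is also a gene of macrophages, and some markers of such cells rose while others did not. Of 22 macrophage and myeloid markers, 10 could be tested and 8 of these rose, against 17.4% of all tested genes called higher. Several of the risers, among them Adgre1 and Laptm5, passed the filter on low counts only through the co-culture libraries. Nothing is therefore read from this count. The summed level of the list was 81.7 to 89.8 CPM in untreated libraries and 129 to 144 CPM after co-culture. Much of the untreated sum came from Cd14, Cd68 and Mertk, at 32.3, 25.1 and 23.0 CPM. Cd68 stayed at 25.1 ± 1.51 CPM after co-culture, and Mrc1 was at 2.29 ± 0.329 and 2.90 ± 0.221 CPM. Neither was called (edgeR adjusted p of 0.968 and 0.0913). Cd163, too low to test, had 30 summed counts in untreated libraries and 15 after co-culture. Adgre1, which encodes the macrophage surface protein F4/80, rose from 0.162 ± 0.102 to 3.66 ± 0.482 CPM, and Laptm5, a lysosomal protein of leukocytes, from 0.0702 ± 0.103 to 2.75 ± 0.341 CPM (edgeR adjusted p of 3.52e-07 and 1.50e-06). Clec4f and Timd4 of resident liver macrophages and the monocyte receptor gene Ccr2 were at 0 in all 10 libraries. The part of such cells in the levels of Cd36 and the other targets was not tested. Adgre1, Laptm5, Cd14, Cd68, Mertk, Mrc1 and Cd163 were named after their values were seen.

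Pdk4 (ENSMUSG00000019577, chromosome 6, 5483351 to 5496309, minus strand) had 0 counts in 9 libraries and 1 count in co-culture replicate 4. A count of 0 over the summed untreated libraries allows up to 0.0393 CPM, and no fold is given.

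Among the receptors, Ppard (ENSMUSG00000002250, chromosome 17, 28232754 to 28301469, plus strand) stood at 97.3, 112, 105, 133 and 130.0 CPM in untreated cells and at 103, 127, 117, 118 and 121 CPM after co-culture. The co-culture range lay within the untreated one, with means of 116 ± 15.6 and 117 ± 8.68 CPM (n = 5, log2 fold change 0.02 ± 0.0856 SE). Pparg (ENSMUSG00000000440, chromosome 6, 115360951 to 115490399, plus strand) stood at 13.6, 13.1, 12.6, 12.4 and 12.1 CPM in untreated cells and at 9.88, 10.1, 10.2, 11.3 and 12.1 CPM after co-culture. The highest co-culture library met the lowest untreated one, and the means were 12.8 ± 0.594 and 10.7 ± 0.955 CPM (n = 5, log2 fold change -0.25 ± 0.0800 SE). The call of Pparg as lower was lost in 9 of 18 alternative fits: library totals without TMM, limma on log2(FPKM + 1) and log2(FPKM + 0.1), the replicate block (log2 fold change -0.25), and the fits without untreated replicate 1 or 2 or co-culture replicate 1, 2 or 3. Without 1 library its log2 fold change was -0.30 to -0.23.

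Ppara (ENSMUSG00000022383, chromosome 15, 85734983 to 85802819, plus strand), the form typical of hepatocytes, had 6, 2, 7, 5 and 6 counts in untreated replicates 1 to 5 and 10, 1, 4, 2 and 7 counts after co-culture. It had reads in every library and was too low to test. The ratio of the summed counts was 0.943, with an exact 95% binomial interval of 0.518 to 1.71, and a change within these bounds was not detectable at this depth.

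Levels of different genes were set side by side as FPKM, which divides by gene length. In untreated cells Plin2 was highest at 78.6 ± 3.57 FPKM, then Cpt1a at 24.7 ± 2.04, Ppard at 17.7 ± 2.23, Angptl4 at 7.43 ± 0.817 and Pparg at 3.04 ± 0.170 FPKM (n = 5). Neighbours in this order did not overlap. Below them came Cpt1b at 0.245 ± 0.194, Ppara at 0.0552 ± 0.0198 and Cd36 at 0.00728 ± 0.0104 FPKM, where Cpt1b overlapped with Ppara, and Cd36 with Pdk4 at 0. After co-culture Plin2 was again highest at 114 ± 4.81 FPKM. Angptl4, at 57.6 ± 4.65 FPKM, now lay above Ppard, at 18.3 ± 1.23 FPKM, and overlapped with Cpt1a, at 64.0 ± 3.56 FPKM. Pparg was at 2.62 ± 0.254, Cpt1b at 1.62 ± 0.123, Cd36 at 0.230 ± 0.0315 and Ppara at 0.0540 ± 0.0402 FPKM, so that Cd36 now lay above Ppara, which overlapped with Pdk4.

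**Figure D2:**
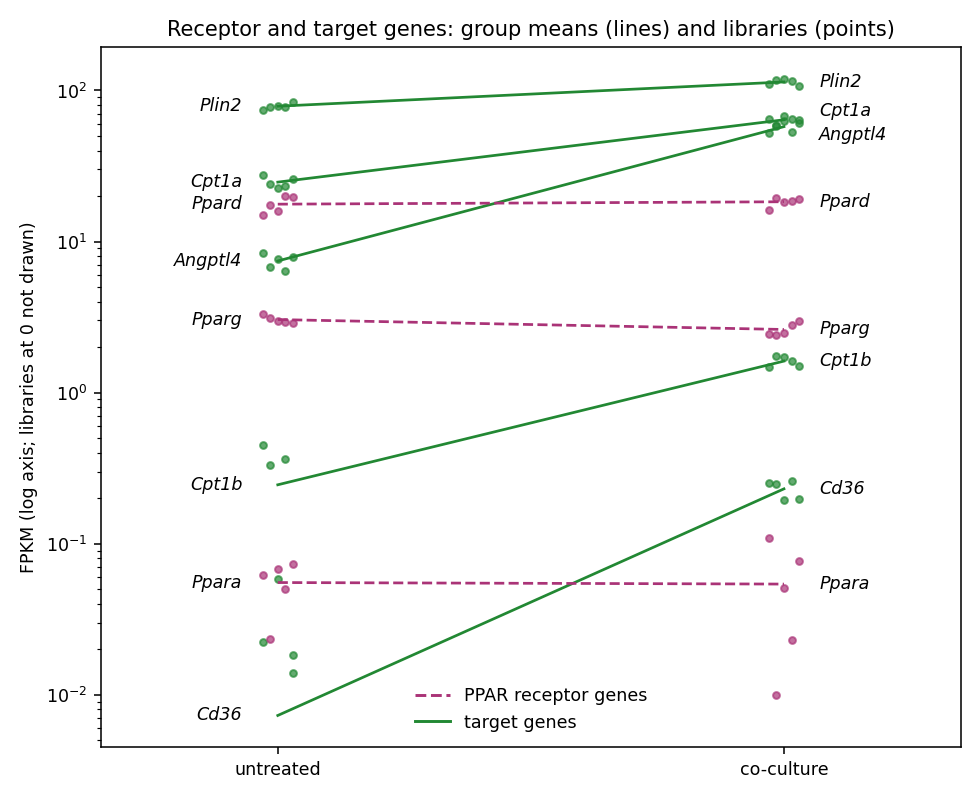
FPKM of the receptor genes and target genes in untreated and co-cultured cells on a log axis, with group means joined and libraries as points. The mean of Angptl4 goes from 7.43 to 57.6 FPKM and crosses that of Ppard, which goes from 17.7 to 18.3 FPKM.

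Ratios within 1 library do not depend on how libraries are scaled. The FPKM ratio of Angptl4 to Ppard was 0.317 to 0.554 in untreated libraries (median 0.402) and 2.84 to 3.45 after co-culture (median 3.18). For Cpt1a to Ppard the medians were 1.38 and 3.49, and for Plin2 to Ppard 4.47 and 6.18. None of these 3 ratios overlapped between the groups. Within the targets, Angptl4 to Cpt1a was 0.273 to 0.338 in untreated libraries and 0.807 to 1.02 after co-culture. The receptor genes summed to 18.4 to 23.1 FPKM in untreated libraries and 18.8 to 22.2 FPKM after co-culture, and these ranges overlapped. Ppard made up 84.9% ± 2.23 and 87.3% ± 1.09 of that sum (n = 5), Pparg 14.8% ± 2.21 and 12.5% ± 0.962, and Ppara 0.269% ± 0.102 and 0.265% ± 0.211. By transcript level, Ppard was the most abundant receptor gene in all 10 libraries.

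Further genes of the pathway were taken from lists. In 3 lists of further PPAR targets, with 81 genes in all, 47 could be tested, of which 9 rose and 13 fell. The share called was 46.8% against 33.5% of all tested genes, and the median log2 fold change was -0.07 against 0.01 over all tested genes. The balance of rises and falls depended on the fit: the counts were 12 and 10 on library totals without TMM, 12 and 12 with limma, 9 and 16 with DESeq2, 9 and 9 with the replicate block, 11 and 10 without untreated replicate 3 and 12 and 11 without untreated replicate 5.

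Of 17 tested genes of fatty acid oxidation, 5 rose and 0 fell (29.4% called against 33.5% of all tested genes), with a median of 0.10. For the falls, edgeR gave 1 gene at an unadjusted p under 0.05, DESeq2 called 1 (Acadm) and limma 0. Acaa2, a thiolase of mitochondrial beta-oxidation, rose from 72.5 ± 5.30 to 128 ± 8.65 CPM with an edgeR adjusted p of 5.63e-07. Etfdh, which passes electrons from beta-oxidation to ubiquinone, rose from 51.8 ± 4.83 to 75.4 ± 3.76 CPM, and the acyl-CoA dehydrogenase gene Acadl, the highest of the list by mean FPKM, from 209 ± 14.5 to 273 ± 5.55 CPM (edgeR adjusted p of 4.49e-05 and 6.17e-05). The liver PPAR alpha targets Cyp4a14 and Ehhadh had 0 and 1, and 2 and 0 summed counts, and Cyp4a10 was at 0 in all libraries. Without untreated replicate 5 or co-culture replicate 1 (Acadm), and without co-culture replicate 2 (Acaa1a), 1 gene was called lower. Cyp4a14, Ehhadh, Acadm and Acaa1a were named after their values were seen.

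Of 17 tested genes of lipid uptake, transport and storage, 3 rose and 6 fell, with a median of -0.20. The share called was 52.9% against 33.5% of all tested genes. Fabp5, a fatty acid binding protein, fell from 64.2 ± 5.95 to 31.2 ± 2.56 CPM with an edgeR adjusted p of 6.28e-07. Vldlr, the receptor for very low density lipoprotein, fell from 98.4 ± 3.30 to 72.2 ± 3.93 CPM and Acsl3, which activates fatty acids, from 152 ± 11.5 to 111 ± 6.28 CPM (edgeR adjusted p of 1.56e-05 and 7.86e-05). Plin3, of the same family as Plin2 and the highest gene of the list by mean FPKM, was at 399 ± 19.8 and 399.8 ± 12.8 CPM (edgeR adjusted p of 0.955). The 3 rises were those of the lipase genes Pnpla2 and Lipe and of Hilpda, an inhibitor of the Pnpla2 lipase, with log2 fold changes of 0.29, 0.38 and 0.42. Without untreated replicate 5 the rises numbered 5, with Dgat1 and Lpl added. They numbered 4, with Lpl added, without untreated replicate 1, 2, 3 or 4 or co-culture replicate 3. Lpl was too low to test in the fit of all 10 libraries. With replicate number as a blocking term the falls numbered 3, without Acsl1, Abhd5 and Dgat2. Pnpla2, Lipe, Hilpda and the genes of these last fits were named after their values were seen.

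Of 13 tested targets in other metabolism and signalling, 1 rose and 7 fell, with a median of -0.25. The share called was 61.5% against 33.5% of all tested genes. Abca1, the cholesterol exporter, fell from 12.6 ± 0.768 to 3.70 ± 0.894 CPM with an edgeR adjusted p of 8.91e-07. Scd1, the stearoyl-CoA desaturase, fell from 728 ± 32.9 to 511 ± 3.54 CPM, while the transcription factor gene Klf10 rose from 65.5 ± 2.88 to 89.5 ± 3.71 CPM (edgeR adjusted p of 9.17e-07 and 1.41e-05). Fads1, a fatty acid desaturase and the highest of the list by FPKM averaged over both groups, had a log2 fold change of -0.12 and an edgeR adjusted p of 0.0447, a call lost in 13 of 18 alternative fits, where adjusted p ran from 0.0123 to 0.112. Fgf21, a hormone that PPAR alpha induces in the fasted liver, fell from 6.20 ± 1.11 to 2.99 ± 0.835 CPM (edgeR adjusted p of 0.00085). The rises numbered 2, with the uncoupling protein gene Ucp2 added, without any 1 of the 5 untreated replicates and without co-culture replicate 2. Fgf21 and Ucp2 were named after their values were seen.

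**Figure D3:**
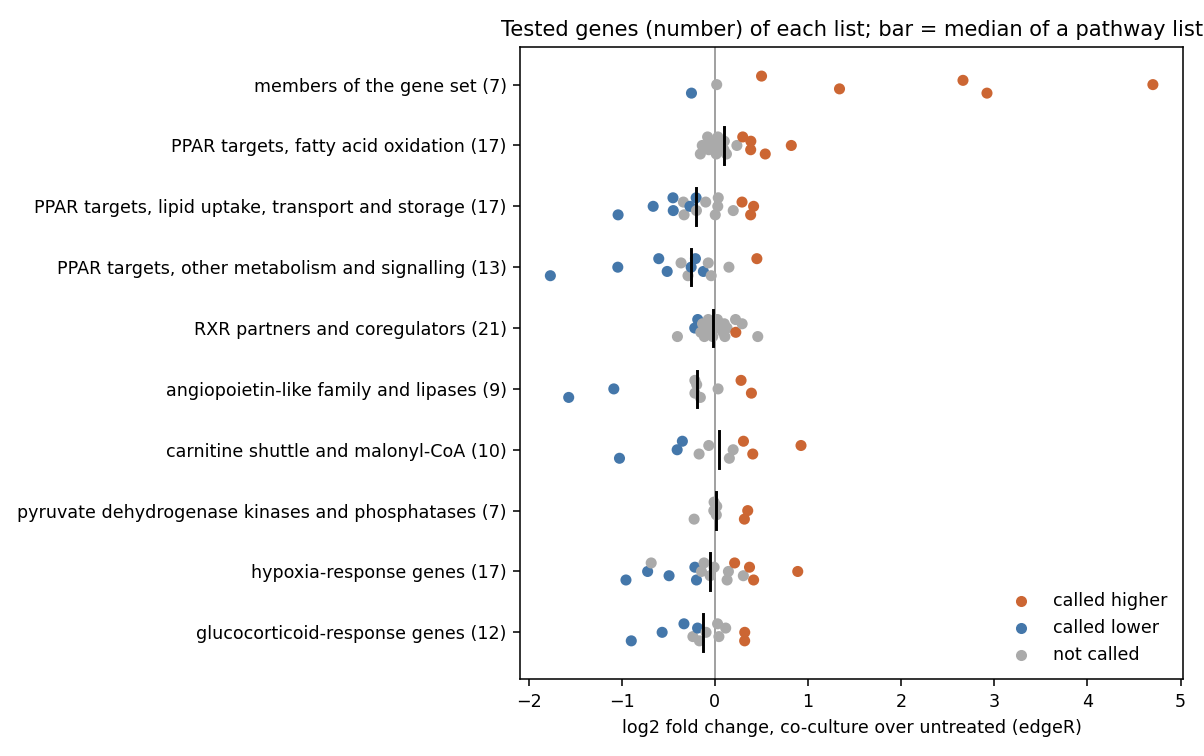
Log2 fold change (co-culture over untreated) of the tested genes in each list, with the edgeR call and the median of each pathway list. The medians of the pathway lists lie between -0.25 and 0.10. Of the members, Cd36, Angptl4, Cpt1b and Cpt1a lie at 4.70, 2.92, 2.66 and 1.34, and Plin2, Ppard and Pparg at 0.50, 0.02 and -0.25. The members were chosen with this comparison known, so their distance from the medians is a description.

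Cpt1 enzymes open the carnitine shuttle and are inhibited by malonyl-CoA. Of 10 other tested genes around it, 3 rose and 3 fell (60% called against 33.5% of all tested genes), with a median of 0.04. Slc25a20, which carries acylcarnitine through the inner mitochondrial membrane, rose from 34.6 ± 1.43 to 65.6 ± 3.41 CPM with an edgeR adjusted p of 7.49e-08. The other rises were Cpt2, which hands the fatty acid back to coenzyme A inside, from 48.1 ± 5.25 to 63.7 ± 3.97 CPM, and the carnitine importer gene Slc22a5, from 25.5 ± 0.698 to 31.5 ± 2.39 CPM (edgeR adjusted p of 0.00100 and 0.00319). Both acetyl-CoA carboxylase genes, whose enzymes make malonyl-CoA, fell: Acacb from 46.9 ± 6.54 to 23.0 ± 1.37 CPM and Acaca from 117 ± 4.58 to 88.1 ± 5.50 CPM (edgeR adjusted p of 3.49e-06 and 6.21e-05). The third fall was that of Crot, a peroxisomal acyltransferase, with a log2 fold change of -0.35. Prkaa1, a kinase subunit that restrains the carboxylases and the highest gene of the list by mean FPKM, was at 78.0 ± 8.83 and 69.4 ± 6.05 CPM (edgeR adjusted p of 0.136), and Cpt1c, the neuronal isoform, at 37.5 ± 4.01 and 43.0 ± 1.67 CPM (edgeR adjusted p of 0.0597). Without untreated replicate 4 the rises numbered 5, with Cpt1c and Crat added. Cpt2, Slc22a5, Crot, Cpt1c and Crat were named after their values were seen.

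**Figure D4:**
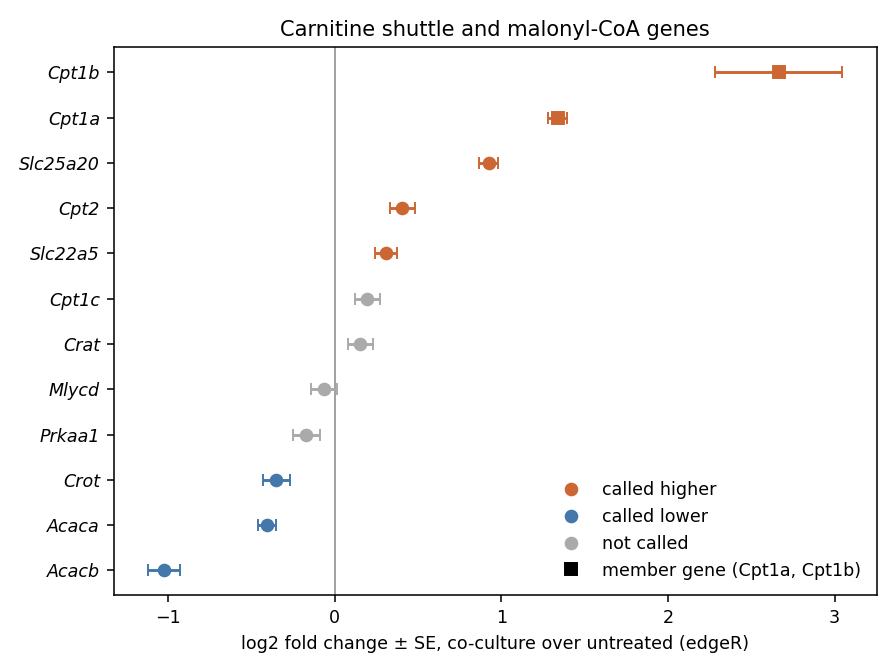
Log2 fold change with its SE (co-culture over untreated, edgeR) of the carnitine and malonyl-CoA genes, with Cpt1a and Cpt1b beside them. Cpt1b, Cpt1a and Slc25a20 lie highest, at 2.66, 1.34 and 0.92, and Acacb lowest, at -1.02.

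The next list held the angiopoietin-like family, the lipases it acts on and further genes around them. Of 9 tested genes, 2 rose and 2 fell (44.4% called against 33.5% of all tested genes), with a median of -0.20. Both rises, Sdc1 and Lmf2, were of genes that are neither angiopoietin-like genes nor lipases. Angptl6 fell from 14.7 ± 3.68 to 4.97 ± 1.02 CPM with an edgeR adjusted p of 2.68e-05. Angptl2 was at 32.6 ± 4.36 and 28.1 ± 3.37 CPM (edgeR adjusted p of 0.133), and Angptl1 was at 0 in all libraries. Lipg, endothelial lipase, fell from 88.3 ± 9.98 to 41.6 ± 1.91 CPM (edgeR adjusted p of 3.03e-07). Lpl, lipoprotein lipase itself, was too low to test, with 1 and 59 summed counts, a ratio of 60.3 with an exact 95% binomial interval of 10.4 to 2421. It is a gene of macrophages as well, and the marker values given beside Cd36 apply to it. The proteoglycan gene Sdc1 rose from 83.6 ± 2.98 to 102 ± 4.70 CPM and Lmf2, a relative of lipase maturation factor 1 and the highest of the list by mean FPKM, from 179.7 ± 16.9 to 236 ± 15.8 CPM (edgeR adjusted p of 0.000449 and 0.000609). Angptl1, Angptl2 and Lpl were named after their values were seen.

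Where Pdk4 was barely detected, the other pyruvate dehydrogenase kinase genes were present. Pdk1, Pdk2 and Pdk3 stood at 61.2 ± 7.40, 12.8 ± 1.30 and 39.1 ± 2.01 CPM in untreated cells. Pdk3 rose to 48.7 ± 0.845 CPM and Pdpr, a regulator of the opposing phosphatase, rose from 15.1 ± 1.32 to 19.3 ± 1.81 CPM (edgeR adjusted p of 0.000601 and 0.00655). Pdk1 and Pdk2 went to 60.9 ± 4.44 and 12.7 ± 1.58 CPM (edgeR adjusted p of 0.951 and 0.946). Pdha1, a subunit of the dehydrogenase and the highest of the list by mean FPKM, was at 129 ± 9.27 and 131 ± 2.92 CPM (edgeR adjusted p of 0.806). Of 7 tested genes, 2 rose and 0 fell (28.6% called against 33.5% of all tested genes), with a median of 0.02. For the falls, edgeR gave 1 gene at an unadjusted p under 0.05, and DESeq2 and limma called 0. Without untreated replicate 4 or 5, Pdp1 was called lower. Pdk1, Pdk2 and Pdp1 were named after their values were seen.

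Of 21 tested RXR partners and coregulators of the receptors, 1 rose and 2 fell, 14.3% against 33.5% of all tested genes, with a median of -0.02. Rxra, an RXR form abundant in liver, fell from 85.6 ± 6.44 to 75.4 ± 0.984 CPM with an edgeR adjusted p of 0.0173, and the coactivator gene Ncoa3 from 73.1 ± 4.23 to 62.9 ± 4.29 CPM with one of 0.0139. Both calls were lost with limma on log2(FPKM + 1) and on log2(FPKM + 0.1). Asxl1, a chromatin regulator, rose from 156 ± 6.90 to 182 ± 9.20 CPM with an edgeR adjusted p of 0.00303. Ppargc1a, a coactivator induced by fasting in liver, had 37 and 43 summed counts, and Rxrg was at 0 in all libraries. The rises numbered 2 without untreated replicate 4 or co-culture replicate 5 (Hdac3) or co-culture replicate 4 (Pprc1), and 3 without co-culture replicate 2 (both). Ppargc1a, Rxrg, Hdac3 and Pprc1 were named after their values were seen.

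The genes whose levels ran most like that of Angptl4 over the 10 libraries were Xpo5, Il1b, Pole, Dnmt1 and Ccl3, with Pearson's r of 0.997 to 0.995 on log2(CPM + 1) among 12149 other genes. This r mostly follows the step between the groups, and 29 genes had r above 0.99. The sizes of the steps differed. Xpo5, which exports microRNA precursors from the nucleus, went from 116 ± 2.98 to 159.8 ± 2.44 CPM, the DNA polymerase gene Pole from 46.0 ± 0.603 to 78.7 ± 2.38 CPM and the DNA methyltransferase gene Dnmt1 from 260.3 ± 3.20 to 388 ± 6.23 CPM (n = 5). The cytokine gene Il1b went from 0.104 ± 0.0528 to 8.44 ± 0.426 CPM, and the chemokine gene Ccl3 was at 0 in untreated libraries and at 5.75 ± 0.524 CPM after co-culture. Il1b and Ccl3 reached the mean of 1 CPM asked for here only through the co-culture libraries. Both are also genes of myeloid cells, and the macrophage marker values given beside Cd36 apply to them, with Lyz2, the lysozyme of myeloid cells, going from 0.931 ± 0.250 to 18.2 ± 2.15 CPM. Their part in the levels of Il1b and Ccl3 was not tested.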

How the data were processed

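Expression was measured by RNA sequencing in 10 libraries, 5 per group. Tools named in the submitters' processing notes are RSEM 1.2.8, Bowtie2 2.2.5 and HISAT2 2.1.0, with build mm10. The annotation release, the strand setting and any filters have no entry (not given in the sources used here). Counts in the deposited table are whole numbers per gene, not normalized, per the file headers and values. The deposited FPKM are scaled to gene length and library total. Totals were 12922263 to 17100662 counts. Floors of 3 counts and binomial intervals cover counting error only.

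Counts were tested with edgeR 4.0.16 in R 4.3.3 (filterByExpr, TMM, two-sided quasi-likelihood F test, Benjamini-Hochberg over 12666 genes, called under 0.05), and the procedure was tested on simulated data. Fold changes are co-culture over untreated, with SE derived from the F statistic, and SD is over 5 libraries. Alternatives were DESeq2 1.42.0, limma 3.58.1 on log2(FPKM + 1) and log2(FPKM + 0.1), other scalings and filters, a replicate block and leaving out each library. Replicates differed beyond sampling noise (chi-square per degree of freedom 6.67 to 15.1 over 20 pairs), so each library counts once.

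The 9 genes and all lists were chosen with earlier results of these data known. Named by rule were, besides the 9, the 3 called genes with the smallest p and the gene of highest mean FPKM in each pathway list, the 5 genes most like Angptl4 (genes averaging 1 CPM or more), and marker genes at 0. All other genes were named after their values were seen. A few list genes are counted but not reported here by name.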

Additional observations from a re-analysis of the deposited data

Results flagged for a closer look

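Pdk4 in co-cultured cells was the single group of 5 libraries in which 1 library stood apart. Co-culture replicate 4 had 1 count and the other 4 had 0, so its gap to the others is the whole range of the group, a ratio of 1. Of 17 groups of 5 looked at in this way 1 was flagged. The usual chance rate of about 1 in 20 holds for continuous values and does not apply here. A group with 1 read in 1 library always gives a ratio of 1.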

How the results depend on the processing

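The log2 fold changes of Angptl4, Cpt1a, Plin2, Ppard and Pparg, and those of Angptl4, Cpt1a and Plin2 minus that of Ppard, moved by less than the spread between replicates under the 18 alternatives tried. Of the scarce genes, Cpt1b was at 1.08 and Cd36 at 0.29 with limma on log2(FPKM + 1), and Cd36 at 1.62 on log2(FPKM + 0.1). A pseudocount understates changes of low genes by construction. Leaving out 1 library gave 4.40 to 5.53 for Cd36. Neither Cpt1b nor Cd36 could be fitted where at least 1 CPM in untreated cells was required. Without 1 library, 1849 to 2128 genes of the whole table were called higher and 1813 to 2093 lower. Library totals without TMM gave 2648 higher and 1743 lower, limma on log2(FPKM + 1) 2614 higher and 1712 lower, and DESeq2 2196 higher and 2163 lower. Without the low-count filter, 4 genes of the list around the angiopoietin-like family and lipases were called higher, with Angptl7 and Lpl added. Same-numbered libraries did not deviate together (r of -0.165 to 0.0596, with 1 of 5 matching its own number best). This check cannot tell whether they share a culture day or batch. With the replicate block, 1762 genes were called higher and 1625 lower, and Angptl4 was at 2.92, Cpt1a at 1.34 and Pparg at -0.25. Depth limits what can be said of Ppara, Pdk4 and Cd36.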

Other observations

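Angptl4 is also known as a gene induced by low oxygen and by glucocorticoids, and lists of both responses were looked at beside a background of 33.5% of all tested genes called. Of 17 tested hypoxia-response genes, 4 rose and 5 fell, with a median log2 fold change of -0.05. Vegfa, a vascular growth factor, fell from 112 ± 8.09 to 67.7 ± 2.61 CPM with an edgeR adjusted p of 6.94e-07. Ndrg1 fell from 327 ± 44.0 to 168 ± 11.0 CPM and the oxidase gene Ero1l from 129 ± 7.73 to 91.4 ± 3.66 CPM (edgeR adjusted p of 2.75e-06 and 1.06e-05). Ldha, lactate dehydrogenase A and the highest by mean FPKM, rose with a log2 fold change of 0.21 and an edgeR adjusted p of 0.00799. The other rises were Ankrd37, Hilpda and Egln3, at 0.89, 0.42 and 0.37 (edgeR adjusted p of 0.000632, 0.00462 and 0.000233). The other falls were Slc2a1 and Pgk1, at -0.21 and -0.20 (edgeR adjusted p of 0.00685 and 0.00981). These last 5 genes were named after their values were seen. The part of low oxygen in the level of Angptl4 was not tested.

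Of 12 tested glucocorticoid-response genes, 2 rose and 4 fell (50% called against 33.5% of all tested genes), with a median of -0.13. Lcn2, a siderophore-binding lipocalin, fell from 61.9 ± 7.13 to 33.2 ± 3.91 CPM and the metallothionein gene Mt1, the highest of the list by mean FPKM, from 96.8 ± 7.03 to 76.9 ± 4.70 CPM (edgeR adjusted p of 1.31e-05 and 0.000864). Fkbp5, a chaperone of the glucocorticoid receptor, rose from 139 ± 6.64 to 174 ± 7.07 CPM with an edgeR adjusted p of 0.00017. The part of glucocorticoids in the level of Angptl4 was not tested.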
